A study of Mus musculus with 12 samples.

Results

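The genes described here encode amino acid transporters, the membrane proteins that move amino acids into and out of cells and lysosomes. They were all genes whose only symbol in the platform annotation begins with Slc1a, Slc3a, Slc7a, Slc36a, Slc38a or Slc43a. This rule gave 43 of the 19938 genes measured, of which 42 encode carriers or their subunits and 1, Slc7a6os, is named only for lying opposite Slc7a6. Their RNA was followed in 4 groups of 3 arrays each: GM-DC with LPS, unstimulated GM-DC, GM-MF with LPS and unstimulated GM-MF. All 4 came from C57B/6 mouse marrow of the tibia and femur that had grown for 6 days in 20 ng/ml recombinant GM-CSF, which drives the growth of myeloid cells. GM-DC stands for the dendritic cells and GM-MF for the macrophages of these cultures, and LPS is bacterial lipopolysaccharide, given at 10 ng/ml for 4 hours. The labels do not give the age of the mice, how the cells were told apart or whether samples came from separate mice or cultures, so the p-values measure the spread between arrays, which may be technical.

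Several of these carriers work as pairs of proteins. The heavy subunit 4F2hc, also known as CD98 and encoded by Slc3a2, brings a light subunit of the Slc7 family to the cell surface, and the light subunit chooses the amino acid. Slc7a5 carries large neutral amino acids such as leucine, Slc7a6 and Slc7a7 exchange arginine and lysine for neutral amino acids, and Slc7a11 takes up cystine in exchange for glutamate. Macrophages use arginine for nitric oxide or for urea and ornithine, and lysosomal carriers return the amino acids of digested proteins to the cytosol, where their supply is sensed by the kinase complex mTORC1.

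Levels are the deposited log2 values, so a difference of 1 is a 2-fold change of signal. A gene passed the test at a limma p-value under 0.05 after adjustment over all 19938 genes, and ± marks the standard error of a difference. The number of arrays per group, 3, limits the precision. Within groups, arrays correlated at 0.993 to 0.996. The 8 dendritic cell markers averaged 8.93 to 9.28 in GM-DC arrays, against 5.52 to 6.50 in GM-MF arrays, although Itgax, 1 of the 8, was 3.76-fold lower in GM-DC with LPS and 4.58-fold lower without it. The 7 measured macrophage markers averaged 6.03 to 6.40 in GM-DC arrays, against 10.0 to 10.4 in GM-MF arrays. In GM-MF LPS raised the dendritic cell markers Zbtb46, Ccr7, Fscn1 and Kit, by 1.32-fold, 5.53-fold, 3.54-fold and 1.99-fold. In GM-DC only Kit of the 8 passed for LPS, 2.29-fold lower, and Ccr7 and Fscn1 averaged 12.05 and 11.80 without LPS. With LPS, 5 of the 8 dendritic cell markers lay above the array medians in GM-MF, against 3 without it, and the added ones were Fscn1 and Kit. Of the other lists, 3 of 7 neutrophil markers and 1 of 3 measured T cell markers did so in each group, and none of the 4 measured B cell markers did so in any group. The 4 stromal markers averaged 5.06 to 5.24 in GM-MF with LPS and 4.68 to 4.93 in unstimulated GM-MF, against 4.26 to 4.44 in GM-DC. Of these, Cdh5 was 4.38-fold lower in GM-DC with LPS and 2.68-fold lower without it, and Pdgfrb was 1.71-fold lower with LPS only. The collagen genes Col1a1 and Col1a2 passed in neither comparison between the cell types (adjusted p = 0.346 and 0.321 with LPS). In such bulk RNA, fewer cells of a type and less RNA per cell cannot be told apart, and the part of mixed cells in the differences below was not tested.

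Of the 43 genes, 20 lay above the array medians (4.41 to 4.54) on all 12 arrays, where 47.0% of all genes did. A further 4, Slc1a2, Slc1a4, Slc7a8 and Slc36a2, exceeded the medians on all 3 arrays of at least 1 group but not of every group, which makes 24, beside 56.7% of all genes. The other 19 did not, and their array values ran from 2.12 to 4.60. They were Slc1a1, Slc1a3, Slc1a6, Slc1a7, Slc3a1, Slc7a3, Slc7a4, Slc7a9, Slc7a12, Slc7a13, Slc7a14, Slc7a15, Slc36a3, Slc38a3, Slc38a4, Slc38a5, Slc38a8, Slc38a11 and Slc43a1. Among these 19 only Slc36a3 passed in any comparison. Low values are given as signals and not as missing transcripts, and a fold against a value under the medians is a ratio of signals whose lower side was not shown to exceed background.

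**Figure D1:**
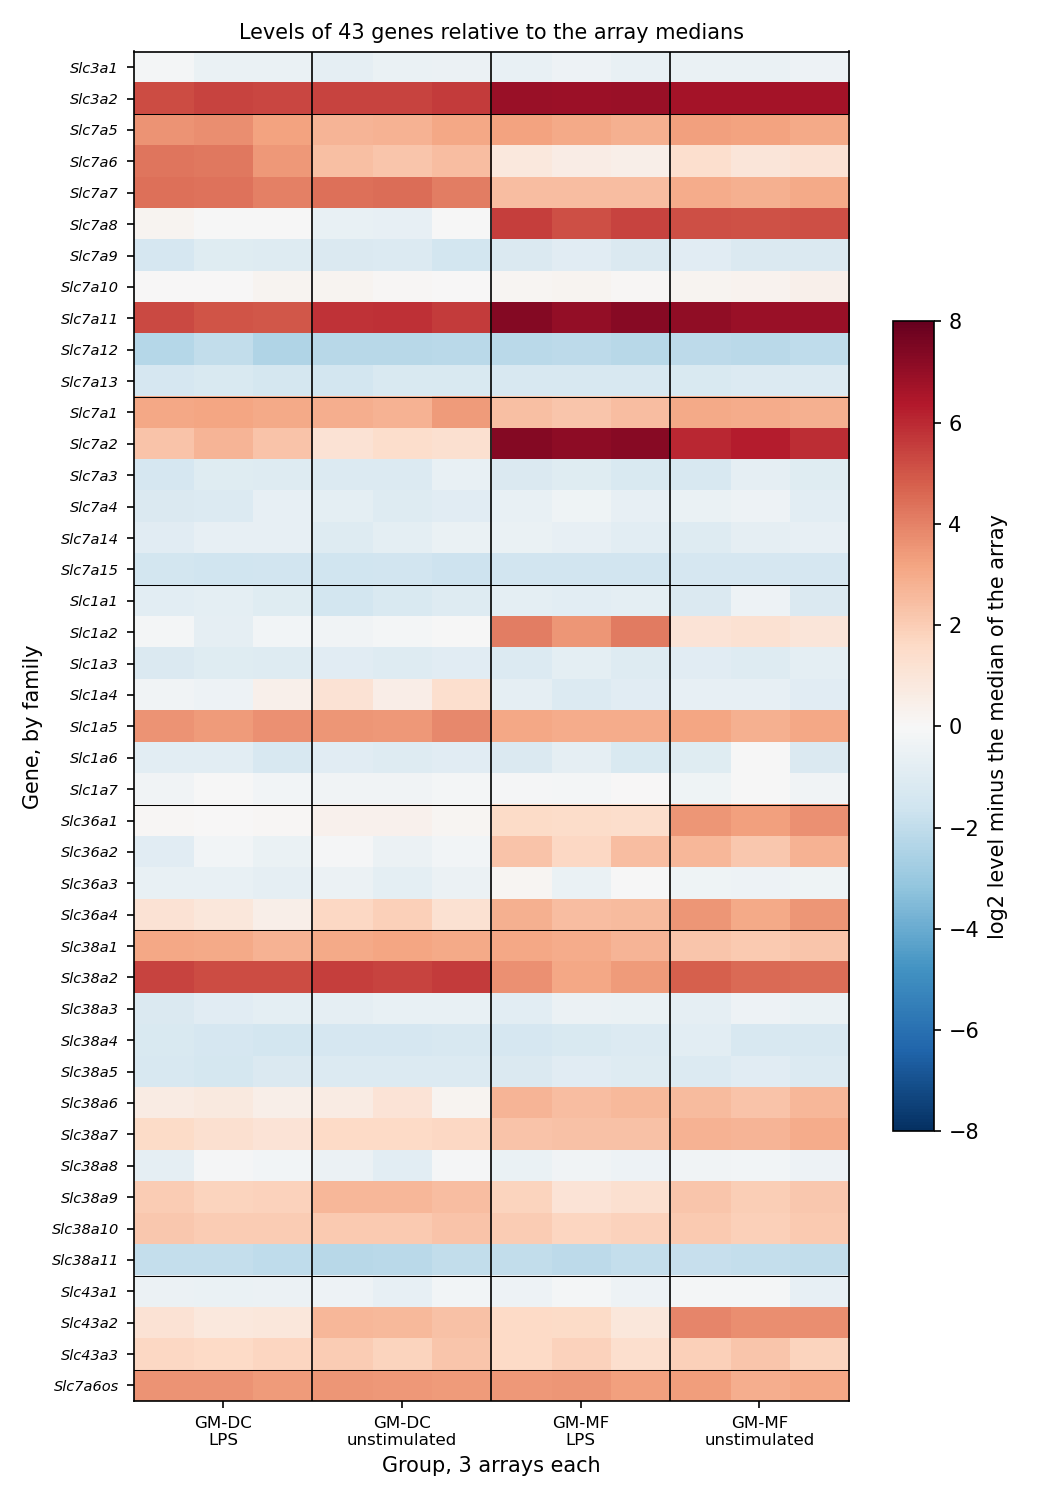
Each row is 1 of the 43 genes and each column 1 array, ordered as GM-DC with LPS, unstimulated GM-DC, GM-MF with LPS and unstimulated GM-MF. The colour gives the log2 level minus the median of its array, so red cells lie above the median and blue cells below it, and colours are to be compared along a row. The rows of Slc7a8, Slc36a2 and Slc1a2 turn from blue or pale in GM-DC to red in GM-MF.

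The heavy subunit Slc3a2, on chromosome 19, was lower in GM-DC than in GM-MF with and without LPS. Its levels were 9.69, 9.95 and 9.89 in GM-DC with LPS and 9.94, 9.93 and 10.10 in unstimulated GM-DC. They were 11.32, 11.32 and 11.36 in GM-MF with LPS and 11.07, 11.15 and 11.10 in unstimulated GM-MF. Every GM-DC array lay below every GM-MF array. The GM-DC minus GM-MF difference was -1.49 ± 0.10 with LPS, which is 2.81-fold lower (adjusted p = 7.33e-09), and -1.11 ± 0.10 without it (adjusted p = 1.99e-07). Neither LPS response of Slc3a2 passed, at -0.15 ± 0.10 in GM-DC (adjusted p = 0.483) and 0.23 ± 0.10 in GM-MF (adjusted p = 0.14, or 0.0341 in a fit whose variance followed the mean level).

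The light subunits did not follow the heavy subunit in a common direction. Slc7a8, on chromosome 14, encodes LAT2, a carrier of neutral amino acids. Its levels were 4.69, 4.52 and 4.46 in GM-DC with LPS and 3.95, 3.86 and 4.42 in unstimulated GM-DC. They were 9.96, 9.60 and 9.85 in GM-MF with LPS and 9.55, 9.60 and 9.63 in unstimulated GM-MF. The GM-DC values lay near or under the array medians and far below the GM-MF values. Slc7a8 was 37.9-fold lower in GM-DC than in GM-MF with LPS (-5.25 ± 0.14, adjusted p = 1.15e-12) and 45.8-fold lower without it (-5.52 ± 0.14, adjusted p = 5.79e-13). Its LPS difference in GM-DC, 0.48 ± 0.14, passed at an adjusted p of 0.0453, but not with the replicate number as a block within each cell type (adjusted p = 0.0595), nor in 5 of the 6 fits that left out 1 GM-DC array (adjusted p = 0.0544 to 0.205).

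Slc7a11, on chromosome 3, was also lower in GM-DC. Its levels were 9.70, 9.59 and 9.48 in GM-DC with LPS and 10.31, 10.36 and 10.06 in unstimulated GM-DC. They were 11.79, 11.50 and 11.72 in GM-MF with LPS and 11.49, 11.40 and 11.34 in unstimulated GM-MF. The groups did not overlap, and the gap between the cell types was wider with LPS than without it. The cell types differed by -2.08 ± 0.11 with LPS, 4.23-fold (adjusted p = 1.06e-09), and by -1.17 ± 0.11 without it, 2.25-fold (adjusted p = 6.71e-07). LPS lowered Slc7a11 in GM-DC by 1.57-fold (-0.65 ± 0.11, adjusted p = 0.00147), the difference in GM-MF was 0.26 ± 0.11 (adjusted p = 0.149), and the 2 responses differed by -0.91 ± 0.16 (adjusted p = 0.0021).

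Both exchangers of arginine, Slc7a6 and Slc7a7, were higher in GM-DC. Slc7a6, on chromosome 8, read 8.76, 8.78 and 7.97 in GM-DC with LPS and 6.91, 6.72 and 6.97 in unstimulated GM-DC. It read 5.24, 5.06 and 4.94 in GM-MF with LPS and 5.73, 5.46 and 5.59 in unstimulated GM-MF. All GM-DC arrays with LPS lay above all unstimulated GM-DC arrays, and the GM-MF arrays were ordered the opposite way. LPS raised Slc7a6 3.12-fold in GM-DC (1.64 ± 0.18, adjusted p = 2.3e-05), while the GM-MF difference of -0.52 ± 0.18 did not pass (adjusted p = 0.0644, or 0.0146 in a fit of the GM-MF arrays alone). The responses differed by 2.16 ± 0.25, 4.46-fold (adjusted p = 7.25e-05). The cell types were 10.7-fold apart with LPS (3.43 ± 0.18, adjusted p = 6.72e-10) and 2.41-fold apart without it (1.27 ± 0.18, adjusted p = 3.6e-05).

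Slc7a7, on chromosome 14, is the exchanger that is mutated in human lysinuric protein intolerance. Its levels were 8.85, 8.87 and 8.52 in GM-DC with LPS and 8.95, 8.95 and 8.60 in unstimulated GM-DC. They were 6.86, 6.91 and 6.93 in GM-MF with LPS and 7.38, 7.37 and 7.49 in unstimulated GM-MF. The GM-DC groups overlapped each other and lay above both GM-MF groups. Slc7a7 was 3.60-fold higher in GM-DC with LPS (1.85 ± 0.12, adjusted p = 7.98e-09) and 2.67-fold higher without it (1.42 ± 0.12, adjusted p = 1.63e-07). It fell 1.43-fold with LPS in GM-MF (-0.52 ± 0.12, adjusted p = 0.00727), and the difference between the responses did not pass (0.43 ± 0.17, adjusted p = 0.174).

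Slc7a5, on chromosome 8, showed a small rise with LPS in GM-DC. It read 8.05, 8.25 and 7.73 in GM-DC with LPS and 7.26, 7.30 and 7.55 in unstimulated GM-DC. It read 7.64, 7.52 and 7.32 in GM-MF with LPS and 7.67, 7.76 and 7.46 in unstimulated GM-MF, so the GM-MF groups overlapped and the GM-DC groups did not. The LPS difference was 0.64 ± 0.14 in GM-DC, 1.56-fold (adjusted p = 0.00805), against -0.14 ± 0.14 in GM-MF (adjusted p = 0.612). The difference between these responses was 0.78 ± 0.20 (adjusted p = 0.0249), and it did not pass in 7 of the 12 fits that left out 1 array (adjusted p = 0.0567 to 0.0707). With LPS the cell types differed by 0.52 ± 0.14 (adjusted p = 0.00852), or 0.40 without GM-DC LPS replicate 2 (adjusted p = 0.0512). The last light subunit above the medians, Slc7a10, a carrier of small neutral amino acids, ran from 4.48 to 4.86 over the 12 arrays and passed in no comparison.

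**Figure D2:**
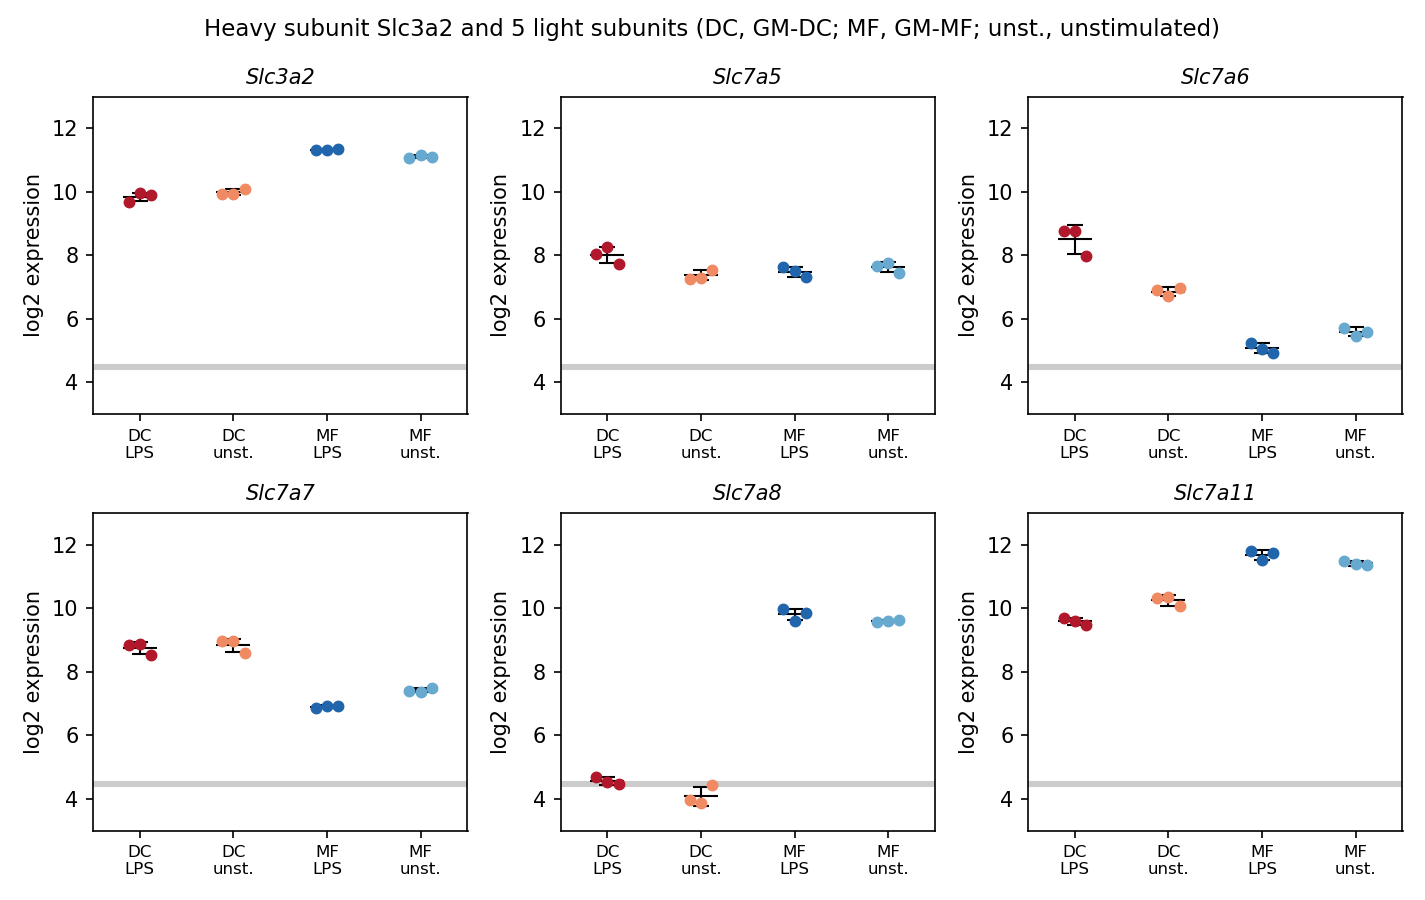
The heavy subunit Slc3a2 and 5 light subunits are plotted in 1 panel each as log2 expression, with a point per array, a line at the group mean, a bar of ± 1 SD (n = 3) and a grey band over the range of the array medians. Slc3a2, Slc7a8 and Slc7a11 sit lower in GM-DC than in GM-MF, Slc7a6 and Slc7a7 sit higher, and the GM-DC points of Slc7a6 are highest with LPS.

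Promoter sequences show what stands in front of some of these genes. Slc7a11, Slc1a4 and Slc7a7 are printed because their promoters held the letters TGATGNAA, the core of the amino acid response element that ATF4 and its partners bind, on either strand. The windows come from RefSeq, assembly GRCm38.p6, run from 250 bases before to 50 bases after the annotated start, are given 5′ to 3′ on the gene's own strand (minus for all 3), and carry the matches in capitals. Slc7a7 has 5 windows, some of which overlap, and the first is shown. The printed windows lie at chr3:50443564-50443863 for Slc7a11, chr11:20332664-20332963 for Slc1a4 and chr14:54417895-54418194 for Slc7a7.
Slc7a11: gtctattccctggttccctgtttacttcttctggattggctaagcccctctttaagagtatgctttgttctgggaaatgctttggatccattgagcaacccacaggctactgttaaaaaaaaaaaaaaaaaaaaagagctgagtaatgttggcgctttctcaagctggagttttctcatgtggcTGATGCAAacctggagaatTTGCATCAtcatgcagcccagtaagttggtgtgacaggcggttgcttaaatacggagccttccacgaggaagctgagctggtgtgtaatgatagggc
Slc1a4: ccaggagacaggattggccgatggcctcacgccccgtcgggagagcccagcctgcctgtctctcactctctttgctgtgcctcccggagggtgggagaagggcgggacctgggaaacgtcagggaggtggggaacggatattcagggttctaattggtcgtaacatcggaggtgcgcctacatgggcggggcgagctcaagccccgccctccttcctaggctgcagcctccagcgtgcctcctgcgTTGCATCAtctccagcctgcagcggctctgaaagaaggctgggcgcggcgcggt
Slc7a7: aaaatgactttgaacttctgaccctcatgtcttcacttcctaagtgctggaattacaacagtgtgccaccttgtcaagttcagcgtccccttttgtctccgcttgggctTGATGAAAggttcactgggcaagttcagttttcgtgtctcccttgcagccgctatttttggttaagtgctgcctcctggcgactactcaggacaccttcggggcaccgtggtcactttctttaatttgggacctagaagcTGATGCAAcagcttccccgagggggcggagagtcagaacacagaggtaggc

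In Slc7a11 the matches begin 66 and 47 bases before the start and face opposite ways. Slc1a4 has 1 match, which begins 4 bases before the start, and the Slc7a7 window has matches that begin 141 bases and 1 base before it. No match overlapped a match of another motif searched. RefSeq windows were found for 32 of the 43 genes, 43 windows in all, and 4 of them (9.30%) held TGATGNAA, beside 3.97% of the 32851 windows of all genes. These 4 windows belong to 3 genes, because overlapping Slc7a7 windows hold the same match. The antioxidant response element, TGACNNNGC on either strand, stood in 6 windows (14.0%), beside 12.4% of all. The NF-kB letters, GGG and CC with any 5 bases between them, on either strand, stood in 26 windows (60.5%), beside 50.8% of all. The gamma-activated site TTCNNNGAA, which reads the same on both strands, stood in 4 windows (9.30%), beside 8.30%, and the interferon-stimulated response element, TTTC and TTTC with any 2 bases between them, on either strand, stood in none, beside 3.44%. A match describes letters and is no evidence of binding. Of the 3 printed genes, Slc7a11 and Slc1a4 fell with LPS in GM-DC, and their differences of 0.26 and -0.19 in GM-MF did not pass. Slc7a7 fell with LPS in GM-MF, and its difference of -0.08 in GM-DC did not pass.

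The cationic carriers import arginine, lysine and ornithine on their own, without a heavy subunit. Slc7a2, on chromosome 8, encodes CAT2, the arginine importer known to be induced in activated mouse macrophages. It read 6.74, 7.23 and 6.77 in GM-DC with LPS and 5.68, 5.92 and 5.75 in unstimulated GM-DC. It read 11.74, 11.61 and 11.71 in GM-MF with LPS and 10.47, 10.77 and 10.34 in unstimulated GM-MF. No groups overlapped, and in each cell type the arrays with LPS lay higher. Slc7a2 was 27.3-fold lower in GM-DC than in GM-MF with LPS (-4.77 ± 0.14, adjusted p = 2.55e-12) and 26.8-fold lower without it (-4.74 ± 0.14, adjusted p = 2.47e-12). LPS raised it 2.19-fold in GM-DC (1.13 ± 0.14, adjusted p = 8.99e-05) and 2.23-fold in GM-MF (1.16 ± 0.14, adjusted p = 3.88e-05), and the responses differed by -0.03 ± 0.20 (adjusted p = 0.977).

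Slc7a1, on chromosome 5, encodes CAT1, the arginine importer of most tissues. Its levels were 7.55, 7.67 and 7.52 in GM-DC with LPS and 7.44, 7.30 and 7.86 in unstimulated GM-DC. They were 6.81, 6.70 and 6.92 in GM-MF with LPS and 7.42, 7.48 and 7.32 in unstimulated GM-MF. Only GM-MF with LPS stood apart, below the other groups. It fell 1.51-fold with LPS in GM-MF (-0.60 ± 0.13, adjusted p = 0.00404), which left GM-DC 1.70-fold above GM-MF with LPS (0.77 ± 0.13, adjusted p = 0.000183) and not detectably different without it (0.13 ± 0.13, adjusted p = 0.543). The difference between the responses, 0.64 ± 0.18 (adjusted p = 0.0443), did not pass with the replicate block within each cell type (adjusted p = 0.0661) or in 11 of the 12 fits that left out 1 array (adjusted p = 0.052 to 0.115).

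Enzymes that use arginine, Arg1, Arg2 and Nos2, were read beside these importers. Arg1, arginase 1, averaged 4.16 in GM-DC with LPS and 4.47 in unstimulated GM-DC, against 9.75 and 9.53 in GM-MF with and without LPS. It was 48.1-fold lower in GM-DC with LPS and 33.5-fold lower without it (adjusted p = 1.41e-11 and 3.35e-11). Arg2, the mitochondrial arginase, was instead 1.39-fold higher in GM-DC with LPS and 1.49-fold higher without it (adjusted p = 0.0188 and 0.00609). The Arg2 call with LPS was lost after cyclic loess (adjusted p = 0.13) and in 3 of 6 fits without 1 array (adjusted p = 0.0644 to 0.0969). Nos2, the inducible nitric oxide synthase, read 5.02, 5.84 and 5.35 in GM-DC with LPS and 4.13, 4.26 and 4.47 in unstimulated GM-DC. In GM-MF it read 11.68, 11.75 and 11.50 with LPS and 6.15, 8.43 and 6.11 without, so 1 unstimulated GM-MF array, replicate 2, stood well above the others of its group. LPS raised Nos2 26.8-fold in GM-MF (4.75 ± 0.44, adjusted p = 2.66e-06), or 45.6-fold without that array (5.51, adjusted p = 2e-09). The difference in GM-DC was 1.12 ± 0.44 and did not pass (adjusted p = 0.153), although its groups did not overlap. It passed in a fit of the GM-DC arrays alone (adjusted p = 0.0078). The responses differed by -3.63 ± 0.62 (adjusted p = 0.00164), or by -4.40 without that array (adjusted p = 7.86e-07).

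Among the Slc1 carriers, which take up glutamate or exchange neutral amino acids, Slc1a2 had the widest LPS response of the 43 genes. It lies on chromosome 2 and encodes GLT-1, the glutamate transporter best known from astrocytes. It read 4.31, 3.83 and 4.28 in GM-DC with LPS and 4.26, 4.33 and 4.46 in unstimulated GM-DC, all under the array medians. It read 8.54, 8.03 and 8.64 in GM-MF with LPS and 5.50, 5.73 and 5.42 in unstimulated GM-MF. LPS raised it 7.23-fold in GM-MF (2.85 ± 0.16, adjusted p = 2.52e-08), against -0.22 ± 0.16 in GM-DC (adjusted p = 0.57). The responses differed by -3.07 ± 0.23, 8.40-fold (adjusted p = 1.55e-06), and GM-DC was 19.2-fold lower than GM-MF with LPS (adjusted p = 2.36e-11) and 2.29-fold lower without it (adjusted p = 2.55e-05).

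Slc1a4 and Slc1a5 encode ASCT1 and ASCT2, exchangers of alanine, serine and cysteine, and ASCT2 also of glutamine. Slc1a4, on chromosome 11, read 4.18, 4.14 and 4.95 in GM-DC with LPS and 5.69, 5.04 and 5.83 in unstimulated GM-DC. It read 3.68, 3.40 and 3.53 in GM-MF with LPS and 3.78, 3.88 and 3.52 in unstimulated GM-MF, under the medians in both. LPS lowered it 2.14-fold in GM-DC (-1.10 ± 0.22, adjusted p = 0.00411), and GM-DC exceeded GM-MF by 1.85-fold with LPS (adjusted p = 0.00455) and 3.48-fold without it (adjusted p = 8.32e-06). The difference between its responses, -0.91 ± 0.31, did not pass (adjusted p = 0.103), but passed with the replicate block within each cell type (adjusted p = 0.0198), and without unstimulated GM-DC replicate 2 or GM-DC LPS replicate 3 (adjusted p = 0.012 to 0.0232). Slc1a5, on chromosome 7, read 8.04, 7.97 and 8.19 in GM-DC with LPS, against 7.50, 7.42 and 7.40 in GM-MF with LPS. It was 1.55-fold higher in GM-DC with LPS and 1.56-fold higher without it (adjusted p = 0.000311 and 0.000279), and neither of its LPS responses passed.

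All 4 genes of the proton-coupled Slc36 family were lower in GM-DC than in GM-MF with LPS, and 3 of 4 were so without it, beside 15.4% and 16.2% of all genes. Slc36a3, 1 of the 4 lower with LPS, lay under the array medians on all but 1 GM-MF array, and its values in GM-DC and GM-MF with LPS overlapped. Slc36a1, on chromosome 11, encodes PAT1, which exports small amino acids from lysosomes. It read 4.53, 4.56 and 4.59 in GM-DC with LPS and 4.87, 4.87 and 4.65 in unstimulated GM-DC. It read 5.98, 5.93 and 5.89 in GM-MF with LPS and 7.91, 7.78 and 8.11 in unstimulated GM-MF. The groups did not overlap, and GM-DC values lay just above the array medians. LPS lowered Slc36a1 4.01-fold in GM-MF (-2.00 ± 0.10, adjusted p = 1.06e-08), against -0.24 ± 0.10 in GM-DC (adjusted p = 0.223), and the responses differed by 1.77 ± 0.15 (adjusted p = 3.52e-06). GM-DC was 2.59-fold lower than GM-MF with LPS (adjusted p = 4.38e-08) and 8.82-fold lower without it (adjusted p = 5.69e-12).

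Slc36a2 encodes PAT2, a carrier of glycine and proline, and stood under the array medians in GM-DC. It read 3.55, 4.30 and 3.97 in GM-DC with LPS, against 6.69, 6.14 and 6.92 in GM-MF with LPS, a 6.24-fold difference (adjusted p = 1.03e-07). Without LPS it was 6.76-fold lower in GM-DC (adjusted p = 6.49e-08), and neither of its LPS differences passed. Slc36a4, on chromosome 9, encodes PAT4, a carrier of proline and tryptophan. It read 5.59, 5.45 and 4.99 in GM-DC with LPS and 6.16, 6.42 and 5.72 in unstimulated GM-DC, against 7.26, 6.93 and 6.97 in GM-MF with LPS and 7.97, 7.55 and 7.96 in unstimulated GM-MF. It was lower with LPS in both, with a difference of -0.75 ± 0.19 in GM-DC (adjusted p = 0.0192) and -0.77 ± 0.19 in GM-MF (adjusted p = 0.00935), although the GM-DC call was lost in a fit of the GM-DC arrays alone (adjusted p = 0.0559) and in 3 of 6 fits without 1 GM-DC array (adjusted p = 0.0702 to 0.102). Slc36a3, under the medians, differed by -0.44 ± 0.14 between GM-DC and GM-MF with LPS (adjusted p = 0.0228), with values that overlapped.

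The Slc38 genes encode sodium-coupled carriers of glutamine and other neutral amino acids, and 6 of the 11 lay above the medians. Slc38a2, on chromosome 15, encodes SNAT2, which is known to be induced when amino acids are scarce. It read 9.86, 9.74 and 9.76 in GM-DC with LPS and 10.08, 9.94 and 10.10 in unstimulated GM-DC. It read 8.05, 7.54 and 7.87 in GM-MF with LPS and 9.17, 9.03 and 8.90 in unstimulated GM-MF. Every group stood apart from the others. LPS lowered Slc38a2 2.32-fold in GM-MF (-1.21 ± 0.13, adjusted p = 7.96e-06), the difference of -0.25 ± 0.13 in GM-DC did not pass (adjusted p = 0.292), and the responses differed by 0.96 ± 0.18 (adjusted p = 0.00309). GM-DC was 3.90-fold above GM-MF with LPS (adjusted p = 6.12e-09) and 2.01-fold above it without (adjusted p = 1e-05).

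Slc38a1, also on chromosome 15, encodes SNAT1, a close relative of SNAT2, and moved the other way in GM-MF. It read 7.54, 7.54 and 7.28 in GM-DC with LPS and 7.52, 7.67 and 7.52 in unstimulated GM-DC. It read 7.52, 7.41 and 7.15 in GM-MF with LPS and 6.62, 6.60 and 6.65 in unstimulated GM-MF. The unstimulated GM-MF arrays were the low ones, and the other 3 groups lay within 7.15 to 7.67. LPS raised Slc38a1 1.67-fold in GM-MF (0.74 ± 0.11, adjusted p = 0.000284), which took it to within 0.09 ± 0.11 of GM-DC with LPS (adjusted p = 0.618), whereas without LPS GM-DC was 1.92-fold higher (adjusted p = 6.72e-06). The responses differed by -0.85 ± 0.16 (adjusted p = 0.00337). A second probe set of this gene gave a smaller LPS difference of 0.27 in GM-MF, and still had GM-DC above GM-MF by 0.44 with LPS.

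Of the lysosomal Slc38 proteins, Slc38a9 senses arginine for mTORC1 and Slc38a7 releases glutamine. Slc38a9, on chromosome 13, read 6.47, 6.30 and 6.37 in GM-DC with LPS and 7.20, 7.17 and 6.94 in unstimulated GM-DC. It read 6.20, 5.55 and 5.77 in GM-MF with LPS and 6.63, 6.49 and 6.59 in unstimulated GM-MF. It was lower with LPS in both cell types, with differences of -0.72 ± 0.14 in GM-DC (adjusted p = 0.00349) and -0.73 ± 0.14 in GM-MF (adjusted p = 0.00186), and the test of the difference between the responses gave 0.01 ± 0.20 (adjusted p = 0.995). GM-DC exceeded GM-MF by 0.54 ± 0.14 with LPS (adjusted p = 0.00643, or 0.0519 after cyclic loess) and by 0.53 ± 0.14 without it (adjusted p = 0.00719). Slc38a7, on chromosome 8, was lower in GM-DC, with a GM-DC minus GM-MF difference of -0.97 ± 0.10 with LPS and -1.14 ± 0.10 without it (adjusted p = 1.36e-06 and 2.31e-07). Its LPS difference was -0.50 ± 0.10 in GM-MF (adjusted p = 0.00252), and that of -0.33 ± 0.10 in GM-DC did not pass (adjusted p = 0.057). Slc38a6 was 3.76-fold lower in GM-DC with LPS and 3.49-fold lower without it (adjusted p = 4.34e-07 and 8.23e-07), with no LPS response that passed, and Slc38a10 ran from 6.17 to 6.79 and passed in no comparison (adjusted p = 0.0506 between the cell types with LPS).

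Slc43a2, on chromosome 11, encodes LAT4, which lets branched-chain amino acids, phenylalanine and methionine cross the membrane down their gradient. It read 5.61, 5.39 and 5.40 in GM-DC with LPS and 7.15, 7.13 and 6.82 in unstimulated GM-DC. It read 6.03, 6.03 and 5.36 in GM-MF with LPS and 8.32, 8.24 and 8.14 in unstimulated GM-MF. Arrays with LPS lay below unstimulated ones in both cell types. Slc43a2 fell 2.97-fold with LPS in GM-DC (-1.57 ± 0.16, adjusted p = 1.23e-05) and 5.38-fold in GM-MF (-2.43 ± 0.16, adjusted p = 1.09e-07). The responses differed by 0.86 ± 0.23 (adjusted p = 0.0315), a call that was lost after median centring (adjusted p = 0.0552) and in 5 of the 12 fits without 1 array (adjusted p = 0.0516 to 0.0838). Without LPS the gene was 2.29-fold lower in GM-DC (adjusted p = 2.18e-05). With LPS the values overlapped and the difference of -0.34 ± 0.16 did not pass (adjusted p = 0.123), though it did without GM-MF LPS replicate 3 (-0.56, adjusted p = 0.00317). Slc43a3, a carrier of purine nucleobases in spite of its family, ran from 5.81 to 6.75 and passed in no comparison, but its LPS difference in GM-MF of -0.37 did with the replicate block within each cell type (adjusted p = 0.0253). Slc7a6os, no carrier, was higher in GM-DC without LPS by 0.41 ± 0.11 (adjusted p = 0.00808).

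**Figure D3:**
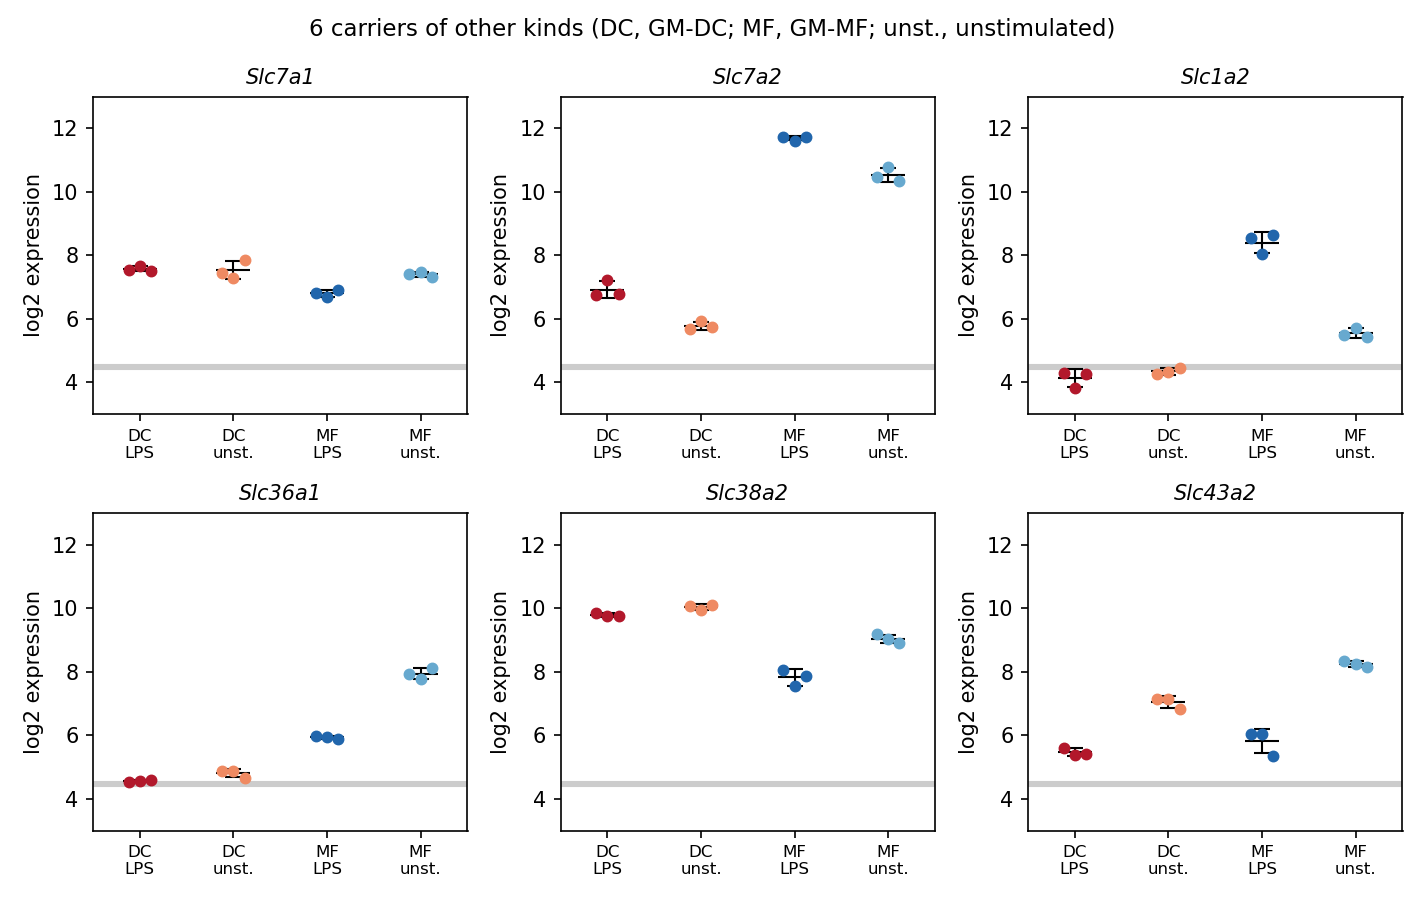
The panels show the log2 expression of Slc7a1, Slc7a2, Slc1a2, Slc36a1, Slc38a2 and Slc43a2, with a point per array, a line at the group mean, a bar of ± 1 SD (n = 3) and a grey band over the range of the array medians. In GM-MF, Slc7a2 and Slc1a2 are higher with LPS and the other 4 are lower, while in GM-DC only Slc7a2 is visibly higher and Slc43a2 visibly lower.

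Over all 43 genes, 19 differed between the cell types with LPS (44.2%), where 36.3% of all genes did. Of these, 8 were higher in GM-DC, where 20.9% of all genes were, and 11 were lower, where 15.4% were. Without LPS, 19 differed as well (44.2%), beside 34.2% of all genes, again 8 higher and 11 lower, beside 18.0% and 16.2%. The shares of higher genes lay near those of all genes. In 16 genes the difference passed both with and without LPS. Those that passed only without LPS were Slc38a1, Slc43a2 and Slc7a6os, and those only with LPS were Slc7a1, Slc7a5 and Slc36a3. The median GM-DC minus GM-MF difference of the 43 was 0.000514 with LPS and -0.104 without it, against 0.00183 and -0.0114 over all genes. At least 2-fold differences that passed came to 12 with LPS (3 higher, 9 lower) and 15 without it (4 higher, 11 lower), beside 12.9% and 12.7% of all genes.

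**Figure D4:**
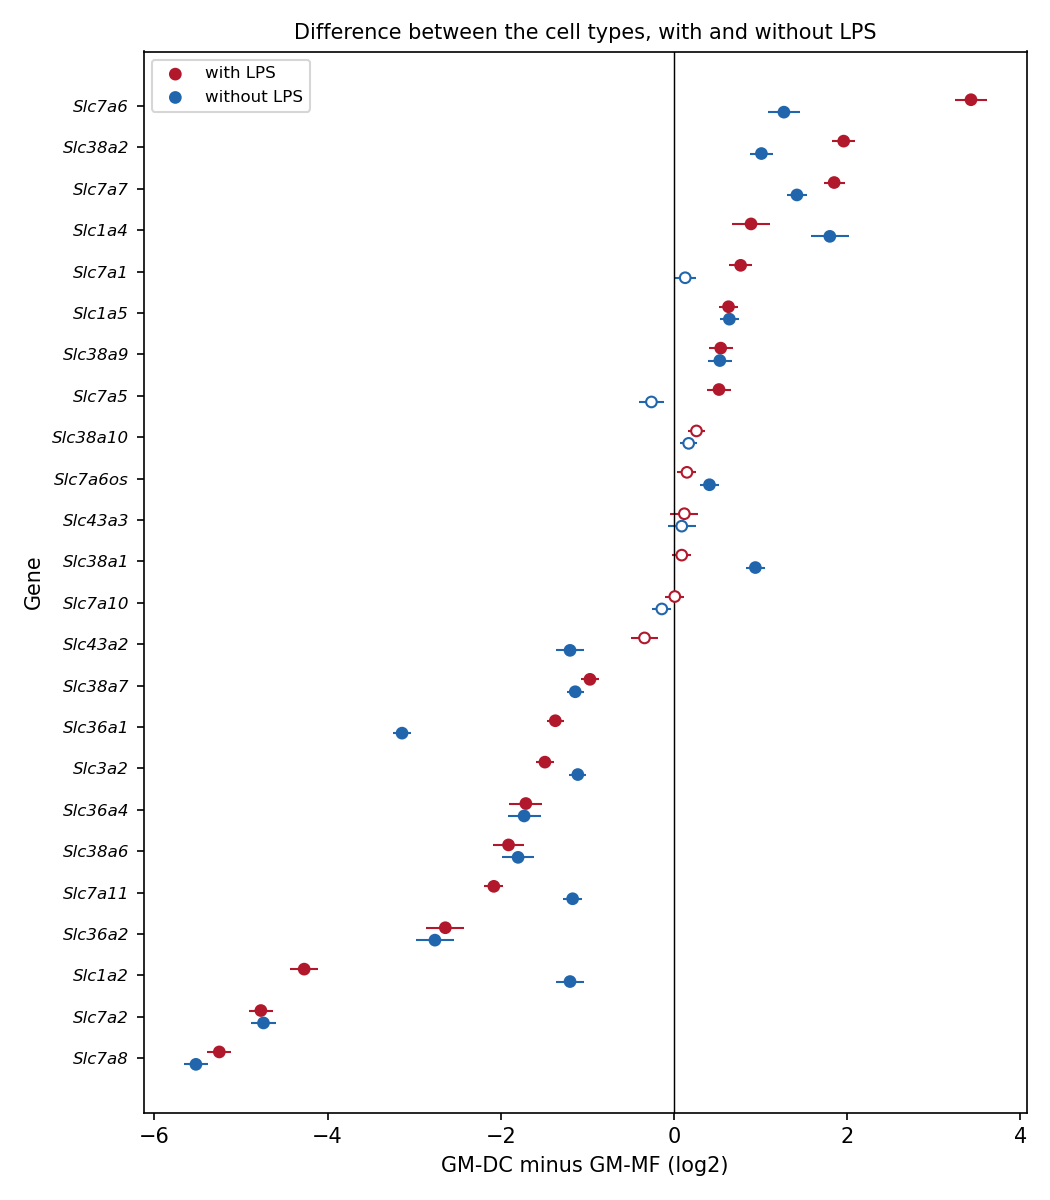
For each of the 24 genes above the array medians in a group, the GM-DC minus GM-MF difference in log2 expression is drawn with LPS and without LPS, with a bar of ± 1 standard error, filled where it passed the test and open where it did not. Slc7a8 and Slc7a2 lie lowest, near -5, with little between their 2 symbols, whereas the 2 symbols of Slc1a2, Slc7a6 and Slc36a1 lie well apart.

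LPS changed fewer of the genes. In GM-DC 9 passed (20.9%), beside 9.72% of all genes, of which 4 were higher (5.23% of all genes were) and 5 lower (4.49%). In GM-MF 11 passed (25.6%), beside 17.4% of all genes, of which 3 were higher (6.54%) and 8 lower (10.8%). Changes of at least 2-fold that passed numbered 4 in GM-DC (2 higher, 2 lower), beside 2.08% of all genes, and 5 in GM-MF (2 higher, 3 lower), beside 3.17%. Slc7a2, Slc36a4, Slc38a9 and Slc43a2 passed in both cell types, each with 1 direction. Slc1a4, Slc7a5, Slc7a6, Slc7a8 and Slc7a11 passed in GM-DC alone, and Slc1a2, Slc7a1, Slc7a7, Slc36a1, Slc38a1, Slc38a2 and Slc38a7 in GM-MF alone, which by itself does not show that the responses differ. The test of the difference between the LPS responses passed for 9 genes (20.9%), beside 7.59% of all genes. It was above 0, GM-DC over GM-MF, for Slc7a6, Slc36a1, Slc38a2, Slc43a2, Slc7a5 and Slc7a1, and below 0 for Slc1a2, Slc7a11 and Slc38a1, beside 4.53% and 3.06% of all genes. It was at least 2-fold in 3 of them, Slc7a6, Slc36a1 and Slc1a2, beside 3.26% of all genes. In all, 22 of the 43 genes passed in at least 1 of the 5 comparisons, beside 46.3% of all genes, and 21 in none. The median LPS difference of the 43 was -0.0554 in GM-DC and -0.0757 in GM-MF, against -0.00788 and -0.0183 over all genes.

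**Figure D5:**
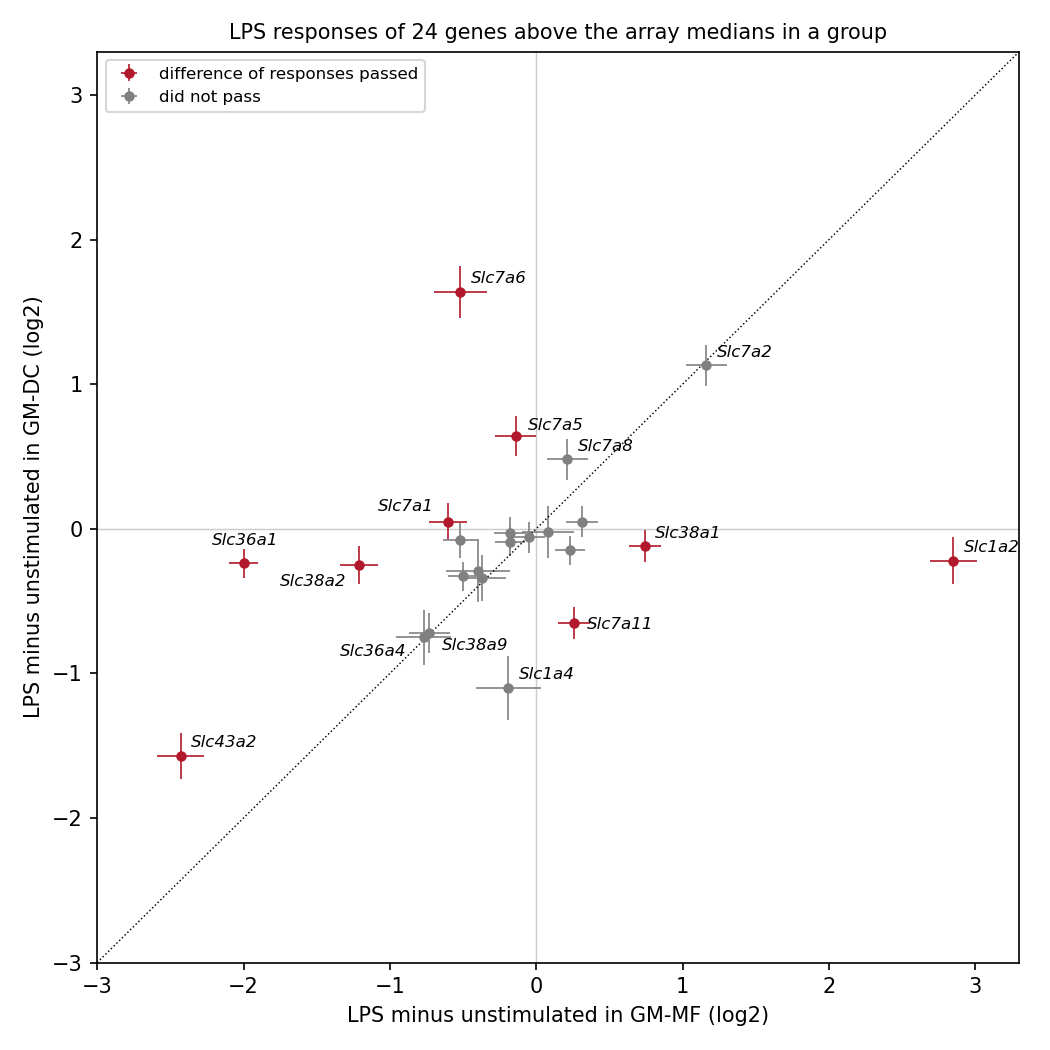
Each point is 1 of the 24 genes above the array medians in a group, with its LPS response in GM-MF on the x axis and in GM-DC on the y axis (log2, bars of ± 1 standard error). Red points passed the test of the difference between the responses, and the dotted line marks equal responses. Slc7a2, Slc36a4 and Slc38a9 lie on the line, Slc7a6 lies far above it and Slc1a2 far below it.

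Amino acid sensing and mTORC1 were read from a list of 33 genes, which holds sensors, subunits and regulators of mTORC1 and some of its targets, and of which 31 were measured. Of these 31, 15 passed as higher and 7 as lower in GM-DC with LPS, beside 20.9% and 15.4% of all genes, and 16 as higher and 12 as lower without it, beside 18.0% and 16.2%. LPS lowered 15 and raised none in GM-MF, beside 10.8% and 6.54% of all genes, or 9 passed after cyclic loess. In GM-DC 2 rose and 3 fell, beside 5.23% and 4.49%, or 9 passed with the replicate block within each cell type. The median LPS difference of the 31 was -0.213 in GM-DC and -0.357 in GM-MF, against the medians of all genes given above. Castor2, a subunit of the cytosolic arginine sensor, averaged 10.0 and 9.96 in GM-DC with and without LPS, against 4.85 and 5.67 in GM-MF with and without LPS. Its GM-DC minus GM-MF difference was 5.15 ± 0.12 with LPS (adjusted p = 5.9e-13). Sesn2, the leucine sensor described in human cells, was 14.4-fold higher in GM-DC with LPS and 8.37-fold higher without it, and fell 2.60-fold with LPS in GM-MF (adjusted p = 0.00059). Its difference of -0.60 with LPS in GM-DC did not pass (adjusted p = 0.149, or 0.00593 with the block), nor did the difference between its responses, 0.79 (adjusted p = 0.199, or 0.0107 with the block). Sesn3, of the same sestrin family, was 3.47-fold higher in GM-DC with LPS and 11.5-fold higher without it, and LPS lowered it 2.76-fold in GM-DC (adjusted p = 1.08e-05). Castor1, the partner of Castor2, was 6.44-fold higher in GM-DC with LPS and 6.22-fold higher without it. Tsc1, which restrains mTORC1 together with Tsc2, was 4.53-fold and 4.88-fold higher, and its LPS difference of -0.40 in GM-DC did not pass (adjusted p = 0.13, or 0.0285 with the block). Fnip2, a partner of folliculin, was 3.81-fold lower in GM-DC with LPS and 3.46-fold lower without it. In GM-MF LPS lowered Tfeb, the transcription factor of lysosomal genes, 2.31-fold (adjusted p = 1.06e-06), Sesn1, another sestrin, 1.92-fold (adjusted p = 0.000135) and Flcn, folliculin, 1.88-fold (adjusted p = 3.32e-05). Deptor, an inhibitor of mTOR, rose 2.17-fold with LPS in GM-DC (adjusted p = 1.37e-05).

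In the amino acid response, ATF4 drives transcription when amino acids run short. The list read here also holds Atf4 itself and Eif2ak4, and it shares Sesn2 with the mTORC1 list, so Sesn2 is counted in both. Of its 24 measured genes, 11 fell and 3 rose with LPS in GM-MF, beside 10.8% and 6.54% of all genes. In GM-DC 3 fell and 1 rose, beside 4.49% and 5.23%. Between the cell types, 9 were higher and 7 lower in GM-DC with LPS, beside 20.9% and 15.4% of all genes. Without LPS 5 were higher and 9 lower, beside 18.0% and 16.2%. The median LPS difference of the 24 was -0.0212 in GM-DC and -0.393 in GM-MF, against -0.00788 and -0.0183 over all genes. Asns, asparagine synthetase, averaged 6.40 in GM-DC with LPS and 5.96 in unstimulated GM-DC, against 6.50 and 8.15 in GM-MF with and without LPS. LPS lowered Asns 3.12-fold in GM-MF (adjusted p = 1.49e-06), the GM-DC difference was 0.43 (adjusted p = 0.0787, or 0.012 with the block), and the responses differed by 2.08 ± 0.20 (adjusted p = 1.3e-05). Atf4 itself fell by 0.49 with LPS in GM-MF (adjusted p = 0.00315), against -0.11 in GM-DC (adjusted p = 0.677), and Mthfd2, of mitochondrial folate metabolism, fell 1.76-fold in GM-MF (adjusted p = 9.15e-05). Nupr1, a stress-induced nuclear protein, rose 3.62-fold with LPS in GM-DC and 2.31-fold in GM-MF (adjusted p = 1.28e-05 and 0.000377). Cebpb, a partner of ATF4, was 16.1-fold lower in GM-DC with LPS and 6.60-fold lower without it. Atf3, a stress-induced transcription factor, was 7.34-fold lower in GM-DC with LPS and 3.37-fold lower without it, whereas Got1, the cytosolic aspartate aminotransferase, was 5.18-fold and 4.86-fold higher. Eif2ak4, the kinase GCN2 that senses uncharged transfer RNA, fell 1.87-fold with LPS in GM-MF (adjusted p = 0.000767), and the difference between its responses, 0.74, did not pass (adjusted p = 0.0581, or 0.0121 with the block). The difference between the responses passed for 8 of the 24, or for 13 with the replicate block within each cell type, Nupr1 among them (adjusted p = 0.0288).

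The next list was of enzymes that use transported amino acids, but it also holds Acod1, and Sat1 and Srm, which act on polyamines. Of its 25 measured genes, 8 rose and 6 fell with LPS in GM-MF, beside 6.54% and 10.8% of all genes. In GM-DC 4 rose and 4 fell, beside 5.23% and 4.49%. Their median LPS difference was -0.000519 in GM-DC and 0.212 in GM-MF. Between the cell types, 7 passed as higher and 8 as lower in GM-DC with LPS, beside 20.9% and 15.4% of all genes. Without LPS 11 passed as higher and 6 as lower, beside 18.0% and 16.2%. Hdc, which makes histamine from histidine, rose 10.8-fold with LPS in GM-MF (adjusted p = 7.56e-09), against a difference of 0.32 in GM-DC (adjusted p = 0.359). Odc1, ornithine decarboxylase, rose 1.91-fold in GM-MF (adjusted p = 2.21e-05), and its mean was 9.36 in GM-DC both with and without LPS. Glul, glutamine synthetase, fell 2.19-fold with LPS in GM-DC (adjusted p = 6.37e-05), against a difference of 0.01 in GM-MF (adjusted p = 0.984). Gclm, the modifier subunit of the enzyme that joins glutamate to cysteine for glutathione, was 5.29-fold lower in GM-DC with LPS and 7.05-fold lower without it. Acod1, which makes itaconate from aconitate and uses no amino acid, was lower in GM-DC by 4.70 on the log2 scale with LPS and 98.7-fold lower without it, and rose 4.45-fold with LPS in GM-DC (adjusted p = 5.34e-06). Cdo1, cysteine dioxygenase, rose 2.52-fold with LPS in GM-DC (adjusted p = 0.000621). Arg2, the mitochondrial arginase, rose 1.94-fold in GM-DC and 2.08-fold in GM-MF (adjusted p = 0.000582 and 0.000135), and Wars, tryptophanyl-tRNA synthetase, rose 2.02-fold in GM-MF (adjusted p = 1.16e-05).

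Of 25 amino acid, peptide and organelle carriers of other families, 12 were lower and 3 higher in GM-DC with LPS, beside 15.4% and 20.9% of all genes. Without LPS 12 were lower and 2 higher, beside 16.2% and 18.0%. Their median GM-DC minus GM-MF difference was -0.307 with LPS and -0.270 without it. Slc16a10, the aromatic amino acid carrier TAT1, averaged 4.09 in GM-DC with LPS, against 7.81 in GM-MF with LPS, which is 13.2-fold lower (adjusted p = 1.94e-11). Slc6a12, the betaine and GABA carrier, rose 5.06-fold with LPS in GM-DC (adjusted p = 4.78e-07) and 1.58-fold in GM-MF (adjusted p = 0.0162, a call lost in 4 of 6 fits without 1 GM-MF array, adjusted p = 0.0513 to 0.0641), with a difference between the responses of 1.68 ± 0.25 (adjusted p = 0.000522). Slc15a3, a lysosomal carrier of histidine and peptides, was 4.73-fold lower in GM-DC with LPS and 3.04-fold lower without it. Ctns, the lysosomal cystine exporter, fell 1.86-fold with LPS in GM-DC and 2.34-fold in GM-MF (adjusted p = 0.00543 and 0.000246). Mfsd12, needed for cysteine import into lysosomes, fell 1.86-fold and 2.01-fold (adjusted p = 0.00029 and 5.45e-05), and Slc29a3, the lysosomal nucleoside carrier, 1.67-fold and 2.27-fold (adjusted p = 0.000811 and 6.51e-06). Slc6a8, the creatine carrier, was 4.15-fold lower in GM-DC with LPS and 4.67-fold lower without it. Slc25a22, a mitochondrial glutamate carrier, rose 2.05-fold with LPS in GM-DC (adjusted p = 1.93e-05), and Slc25a13, the mitochondrial aspartate and glutamate carrier citrin, fell 2.22-fold in GM-MF (adjusted p = 0.000299).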

How the data were processed

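RNA of 12 samples was measured on Affymetrix GeneChip Mouse Gene 1.0 arrays, 1 array each. The authors deposited log2 values made with RMA, with R 3.0.2 named beside it, per the submitters' processing notes. The base was taken as 2 from the range of 1.18 to 13.7. No scanner files were read and detection above background was not assessed. Nothing was rescaled or filtered. Of 35556 probe sets, 21789 had 1 symbol in the platform annotation, 1621 had several and 12146 none. RefSeq (GRCm38.p6) held the Entrez identifiers of 21698 of them and gave the chromosomes. Each gene was represented by its probe set of highest mean, which left 19938 genes. No genome build is named for the values.

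Differences were tested with limma 3.58.1 in R 4.3.3: a linear model of the 4 group means over the 12 arrays, with contrasts and eBayes moderation, no trend (8 residual degrees of freedom, two-sided, Benjamini-Hochberg adjustment over all genes of a comparison). The 5 comparisons were GM-DC minus GM-MF with and without LPS, LPS minus unstimulated in each cell type, and the difference of the LPS responses. Comparisons share arrays. The script was tested on simulated data.

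The members and the pathway lists were chosen with earlier results of these data known, so the lists' counts are descriptions. Carriers were named if above the median of their array on all 3 arrays of a group, or if they passed with a log2 difference of at least 1. Per pathway list, the 4 genes that passed with the largest difference in each comparison (fewer where fewer passed), and Arg1, Nos2, Odc1, Asns and Atf4, were named. Listed symbols that were not matched are left out of the counts of measured genes.

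Deviations from group means correlated at 0.119 to 0.363 between GM-DC arrays of the same number with and without LPS, and at 0.104 to 0.257 between such GM-MF arrays. Arrays of different numbers gave -0.25 to 0.164 in GM-DC and -0.216 to 0.0254 in GM-MF. In GM-DC the ranges overlapped, so the values do not settle whether its numbers pair samples. For the replicate block within each cell type, the numbers were nevertheless taken to pair samples, from the data and not from the labels. The p-values reported first come from the fit without pairing. Between GM-DC and GM-MF the same numbers gave -0.0047 to 0.156 with LPS and -0.168 to 0.0117 without it, and were not taken as pairs. Alternatives were median centring, cyclic loess, only genes with a mean above the table median, averaged probe sets, eBayes with trend, only the arrays compared, a replicate block over all arrays and, chosen after seeing the data, within each cell type, and leaving out each array in turn.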

Additional observations from a re-analysis of the deposited data

Results flagged for a closer look

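The LPS response of GM-DC differed from that of GM-MF by limma's test of the difference in the following genes, given as the GM-DC response minus the GM-MF response in log2. Among the carriers described, the value was 2.16 for Slc7a6, 1.77 for Slc36a1, 0.96 for Slc38a2, 0.86 for Slc43a2, 0.78 for Slc7a5 and 0.64 for Slc7a1. It was -3.07 for Slc1a2, -0.91 for Slc7a11 and -0.85 for Slc38a1. Among carriers of other families it was 1.68 for Slc6a12, 1.00 for Slc25a13, 0.72 for Slc25a22 and -0.64 for Slc15a3. Among genes of sensing, of the amino acid response and of metabolism it was 2.08 for Asns, 1.92 for Acod1, 1.27 for Deptor, 1.11 for Flcn, 1.08 for Mthfd2, 1.08 for Cdo1, 0.89 for Tfeb and 0.86 for Castor2. It was -3.63 for Nos2, -3.11 for Hdc, -1.73 for Sesn3, -1.29 for Cebpb, -1.14 for Glul, -1.12 for Atf3, -0.94 for Odc1 and -0.63 for Wars. Without 1 array, the call was lost in some fits for Slc7a1, Slc7a5, Slc43a2, Cdo1, Wars and Slc25a13. For Acod1, the unstimulated GM-MF mean was already 12.44, and its LPS difference in GM-MF was 0.23. No explanation of these differences between the responses was tested.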

How the results depend on the processing

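No called difference of a named gene changed sign under an alternative, and of their folds only those of Nos2 moved by over 1.5 times, all without unstimulated GM-MF replicate 2, where GM-DC was 3.58-fold rather than 6.11-fold lower without LPS. Differences that had not passed, of at most 0.22 in size, changed sign in 79 fits. Over the 43 genes, the number that passed stayed within 1.5 times the reported one for all 5 comparisons and all alternatives: leaving out 1 array gave 18 to 19 between the cell types with and without LPS, 7 to 9 for LPS in GM-DC, 11 to 12 in GM-MF and 6 to 9 for the difference of responses. With the replicate block within each cell type, the number of mTORC1 genes that passed for LPS in GM-DC was 9 rather than 5, and the number of amino acid response genes that passed for the difference of responses was 13 rather than 8. This pairing otherwise changed the calls given beside Slc7a8, Slc7a1, Slc1a4, Slc43a3, Sesn2, Tsc1, Asns, Eif2ak4 and Nupr1, and no other named gene's. A block shared by both cell types also gave calls to Slc7a6 and Castor1 for LPS (in GM-MF and GM-DC), to Slc38a10, Slc43a2 and Slc29a3 between the cell types with LPS, and to Hdc and Cdo1 without it. Testing only genes with a mean above the table median gave 10 mTORC1 genes and 7 amino acid response genes for LPS in GM-DC, and cyclic loess gave 9 mTORC1 genes in GM-MF rather than 15. Leaving out 1 array gave 3 to 8 mTORC1 genes and 5 to 8 enzymes for LPS in GM-DC, and 6 to 12 enzymes for the difference of responses. The causes of these shifts were not tested. Calls of the 43 genes lost without 1 array were that of Slc7a1 (any but unstimulated GM-DC replicate 3), of Slc7a5 (unstimulated GM-DC 1 or 2, unstimulated GM-MF 1 or 2, GM-DC LPS 1 or 2, GM-MF LPS 3) and of Slc43a2 (unstimulated GM-DC 3, unstimulated GM-MF 1 or 2, GM-DC LPS 1 or 2) for the difference of responses, and those of Slc7a8 (any GM-DC array but unstimulated 3) and Slc36a4 (unstimulated 1 or 2, LPS 3) for LPS in GM-DC, beside that of Slc7a5 between the cell types with LPS (GM-DC LPS 2, adjusted p = 0.0512). Such calls gained were those of Slc1a4 for the difference of responses (unstimulated GM-DC 2 or GM-DC LPS 3), Slc43a2 between the cell types with LPS (GM-MF LPS 3, adjusted p = 0.00317), Slc38a7 for LPS in GM-DC (without LPS replicate 1, adjusted p = 0.0415), Slc7a6os for LPS in GM-MF (without unstimulated replicate 1, adjusted p = 0.0385) and Slc38a10 between the cell types with LPS (without GM-MF LPS replicate 1, adjusted p = 0.0286). Of the pathway genes, leaving out 1 array lost calls of Atf4, Glul and Slc25a13 between the cell types without LPS, Ctns, Deptor, Eif2ak4 and Arg2 with LPS, Gclm, Sesn1, Got1 and Wars for LPS in GM-DC, Slc6a12 and Castor1 in GM-MF, and Cdo1, Wars and Slc25a13 for the difference of responses. It gained calls of Hdc and Cdo1 between the cell types without LPS, Tfeb and Slc6a8 for LPS in GM-DC, Tsc1 and Slc25a22 in GM-MF, and Nupr1 and Eif2ak4 for the difference of responses. The only-arrays-compared fit does not apply to the difference of responses.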
